A study of Mus musculus with 6 samples.

Results

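The H2 genes encode the major histocompatibility complex of the mouse, the cell-surface proteins that show peptides to T cells. They were taken as every gene placed on chromosome 17 of the mouse build mm10 (RefSeq assembly GRCm38.p6) whose symbol starts with H2-, whatever its biotype, which gave 46 genes of the 49595 genes placed on chromosomes 1 to 19, X and Y and of the 2136 on chromosome 17. Another 4 H2 symbols lie on other scaffolds in the RefSeq table and were not analysed here. The 46 genes comprised 3 classical class I genes, 5 class II A and E genes, 7 other class II genes, 29 non-classical class I genes (8 Q, 6 T and 15 M) and 2 further genes that carry the symbol, H2-Ke6 and H2-Bl. RefSeq lists 35 of them as protein-coding and 11 as pseudogenes.

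Methyl-CpG-binding domain sequencing (MBD-seq), in which a methyl-binding protein pulls down methylated fragments before sequencing, was done on whole-lung DNA in 6 libraries, 3 from transgenic and 3 from wild-type mice, all with a labelled age of 12 to 16 months. The transgenic mice carried SPC/Δ3B4DG, a deletion variant of the DNA methyltransferase DNMT3B under the promoter of surfactant protein C, which is active in alveolar type 2 cells, whereas the DNA came from all cells of the lung. The treatment protocol describes 4 founder lines, and the labels give no founder line, strain, H2 haplotype or sex for these animals. The wild-type mice carried no transgene.

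A peak here is an interval that the authors' peak caller found enriched for methylated fragments in 1 library, and each library has its own list. List lengths were 120349, 116352 and 78952 peaks in transgenic libraries 1, 2 and 3, against 60131, 111211 and 30640 in wild-type libraries 1, 2 and 3. Transgenic library 3 and wild-type libraries 1 and 3 therefore had the shorter lists, and wild-type library 2 stood with transgenic libraries 1 and 2. Read depth is unknown, so list length moves with every count below and its part in the differences between groups was not tested, apart from the equal-length lists described where they bear. Peaks give neither RNA levels nor cell types, so the tissue label was not checked against markers, and methylation in a share of the cells cannot be told apart from methylation in all of them.

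Class I molecules sit on nearly all nucleated cells and are held together by beta-2 microglobulin, and the classical genes H2-K1 and H2-D1 encode the main peptide-presenting forms. Class II molecules pair an alpha chain (H2-Aa, H2-Ea) with a beta chain (H2-Ab1, H2-Eb1) and are made mainly by antigen-presenting cells, and alveolar type 2 cells of the lung also make them. H2-DM helps peptides onto class II molecules and H2-O restrains H2-DM. Methylation of CpG sites at class I and class II promoters, or at the promoter of the class II transactivator, is a known way in which tumour cells lose antigen presentation.

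Promoter sequences are shown first because H2 promoters differ widely in how many CpG sites a methyl-CpG-binding protein could capture. RefSeq windows from 250 bases before to 50 after the transcription start (GRCm38.p6) were matched by symbol for 32 of the 46 genes, in 35 entries. The 6 windows below run from the classical genes through H2-DMa, the richest in CpG, to the class II genes and an M gene. They lie at chr17:34000298-34000597 (H2-K1, minus strand, its first entry), chr17:35262844-35263143 (H2-D1, plus), chr17:34122582-34122881 (H2-DMa, plus, its first entry), chr17:34287774-34288073 (H2-Aa, minus), chr17:34305617-34305916 (H2-Eb1, plus) and chr17:36811925-36812224 (H2-M10.6, plus). Capitals mark CpG sites.
H2-K1: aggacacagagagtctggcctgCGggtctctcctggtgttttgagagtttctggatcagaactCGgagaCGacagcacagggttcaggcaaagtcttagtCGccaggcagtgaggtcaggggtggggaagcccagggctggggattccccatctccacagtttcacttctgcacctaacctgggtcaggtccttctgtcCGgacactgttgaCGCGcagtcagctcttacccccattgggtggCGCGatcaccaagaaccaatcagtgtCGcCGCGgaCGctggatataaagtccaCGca
H2-D1: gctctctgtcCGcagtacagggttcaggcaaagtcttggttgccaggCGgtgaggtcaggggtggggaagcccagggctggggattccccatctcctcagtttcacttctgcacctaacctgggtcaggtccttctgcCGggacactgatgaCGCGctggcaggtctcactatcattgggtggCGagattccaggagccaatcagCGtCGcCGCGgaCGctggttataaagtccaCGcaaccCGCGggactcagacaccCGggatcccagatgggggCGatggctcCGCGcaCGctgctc
H2-DMa: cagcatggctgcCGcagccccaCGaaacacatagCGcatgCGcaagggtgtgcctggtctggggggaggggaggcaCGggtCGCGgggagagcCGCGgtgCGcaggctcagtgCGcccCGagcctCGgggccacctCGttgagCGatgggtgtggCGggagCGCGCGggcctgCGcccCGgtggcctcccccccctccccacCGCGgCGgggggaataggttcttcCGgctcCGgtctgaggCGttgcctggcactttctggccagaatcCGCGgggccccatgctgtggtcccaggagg
H2-Aa: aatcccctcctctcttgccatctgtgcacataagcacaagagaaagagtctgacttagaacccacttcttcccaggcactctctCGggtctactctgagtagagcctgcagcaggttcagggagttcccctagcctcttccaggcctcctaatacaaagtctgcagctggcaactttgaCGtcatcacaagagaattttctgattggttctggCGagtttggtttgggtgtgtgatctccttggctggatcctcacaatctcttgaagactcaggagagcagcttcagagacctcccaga
H2-Eb1: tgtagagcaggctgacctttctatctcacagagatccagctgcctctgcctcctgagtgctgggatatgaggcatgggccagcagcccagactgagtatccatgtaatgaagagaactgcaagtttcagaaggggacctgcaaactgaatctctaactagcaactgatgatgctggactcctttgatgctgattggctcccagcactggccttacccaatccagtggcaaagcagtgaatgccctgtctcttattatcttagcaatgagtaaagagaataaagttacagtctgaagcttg
H2-M10.6: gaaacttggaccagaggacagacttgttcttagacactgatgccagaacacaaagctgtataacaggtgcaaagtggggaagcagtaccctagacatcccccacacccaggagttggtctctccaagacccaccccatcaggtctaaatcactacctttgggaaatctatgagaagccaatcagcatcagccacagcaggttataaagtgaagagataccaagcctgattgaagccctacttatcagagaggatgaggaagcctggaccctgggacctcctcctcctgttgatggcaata

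The H2-K1 window holds 14 CpG sites, the H2-D1 window 19 and the H2-DMa window 29. The H2-Aa window holds 3, and the H2-Eb1 and H2-M10.6 windows hold 0. A second H2-DMa entry, further inside the gene, also holds 0. Over the 35 H2 entries the count ran from 0 to 29 with a median of 3, against a median of 7 over all 32851 RefSeq promoters. Of the other class II A and E genes, only H2-Eb2 had an entry, with 1 CpG. Windows without CpG could not show a methylated site inside them, although a peak can reach over them from neighbouring sequence.

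**Figure D1:**
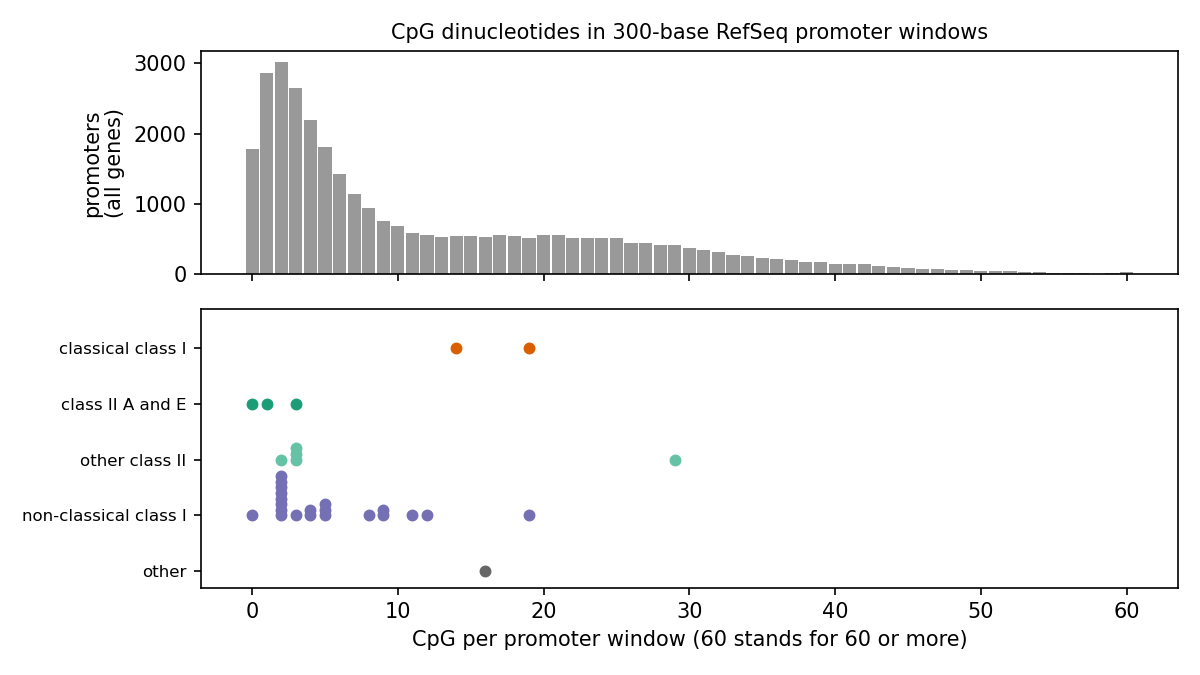
Number of CpG dinucleotides (x axis) in 300-base promoter windows, for all RefSeq promoters (upper panel, y axis number of promoters) and for H2 genes by class (lower panel, 1 point per gene, first entry of each). Most H2 promoters sit at the low end with a median of 3, and H2-DMa at 29, H2-D1 and H2-Q10 at 19 and H2-K1 at 14 stand to the right.

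No H2 promoter entry was overlapped by a peak in any library, 0 of 35 in each. The share of all promoters with a peak was 5.32, 5.20 and 3.04% in transgenic libraries 1 to 3, against 2.26, 5.43 and 0.788% in wild-type libraries 1 to 3. Peaks on promoters were thus uncommon in every library, and a count of 0 among 35 is read against those shares. Among promoters with 10 or more CpG sites, which hold 7 of the H2 genes, the shares were 5.63, 6.15 and 3.85% in the transgenic libraries, against 2.93, 6.38 and 1.38% in the wild-type libraries. Among promoters with 0 to 3 CpG sites, which hold 17 of the 32 H2 genes, the shares were 1.86, 1.56 and 0.834% in the transgenic libraries, against 0.669, 1.77 and 0.0776% in the wild-type libraries. Promoters with 4 to 9 CpG sites hold 8 of the H2 genes. Their shares were 9.12, 8.09 and 4.39% in the transgenic libraries, against 3.09, 8.34 and 0.654% in the wild-type libraries. At these shares, 0 of 35 is near the background.

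The promoters also carry the letters of a known regulatory element. The CCAAT box, which is the Y box of class II promoters, was found on either strand in the windows of 29 of 32 H2 genes, against 37.4% of all promoters. Close copies are common in the locus: the H2-M10.3 and H2-M10.5 windows are identical at 92.7% of 300 bases, and those of H2-T23 and H2-T-ps at 90.3%. The sources used here do not give how reads that map to more than 1 such copy were treated, so values of near-identical H2 genes are uncertain.

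For each gene the window counted was its RefSeq span with 1000 bp added at each end. Among the 46 H2 genes, 28 had no peak in any library, 18 had a peak in at least 1, 14 in at least 3 and 2 in all 6, H2-Oa and H2-T24. A peak was present at 17, 15 and 7 H2 genes in transgenic libraries 1 to 3, against 7, 13 and 4 in wild-type libraries 1 to 3. The groups overlapped, since wild-type library 2 was above transgenic library 3. As shares these were 37.0, 32.6 and 15.2% in the transgenic libraries, against 15.2, 28.3 and 8.70% in the wild-type libraries. The means were 28.3 ± 11.5% in transgenic and 17.4 ± 9.96% in wild-type libraries (SD, n = 3 each), a difference of 10.9 percentage points that is about as large as the spread within groups.

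The same measure over all genes gave 51.4, 50.8 and 41.8% in the transgenic libraries, against 35.8, 49.98 and 20.1% in the wild-type libraries, and over the other 2090 genes of chromosome 17 it gave 58.0, 55.7 and 46.3%, against 39.4, 55.0 and 21.7%. In each of the 6 libraries the H2 share was lower than both of these. The transgenic mean exceeded the wild-type mean by 12.7 points over all genes and by 14.6 over the other chromosome 17 genes. The H2 difference of 10.9 points was thus not larger than that of other genes. H2 windows are shorter on average, with 334106 bp (overlaps merged) for 46 genes. All RefSeq windows sum to 1418718523 bp for 49595 genes, and those of the other 2090 chromosome 17 genes to 51737003 bp. The part of window length in these shares was not tested. For H2 genes in transgenic library 1 the exact binomial 95% interval ran from 23.2 to 52.5%, and in transgenic library 3 from 6.34 to 28.9%, and these intervals cover counting error only. Neighbouring H2 genes are paralogs that share sequence, so they do not count as independent draws. Measured by length, the H2 windows were covered more than all gene windows in 4 of the 6 libraries, and less than the windows of the other chromosome 17 genes in 5 of the 6. Peaks covered 3.60, 2.58 and 1.38% of their bases in transgenic libraries, against 1.29, 2.46 and 0.473% in wild-type libraries, while all gene windows were covered to 3.01, 2.53 and 1.57%, against 1.16, 2.56 and 0.277%. The other chromosome 17 genes were covered to 4.14, 3.30 and 2.05% in transgenic libraries, against 1.49, 3.48 and 0.342% in wild-type libraries.

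**Figure D2:**
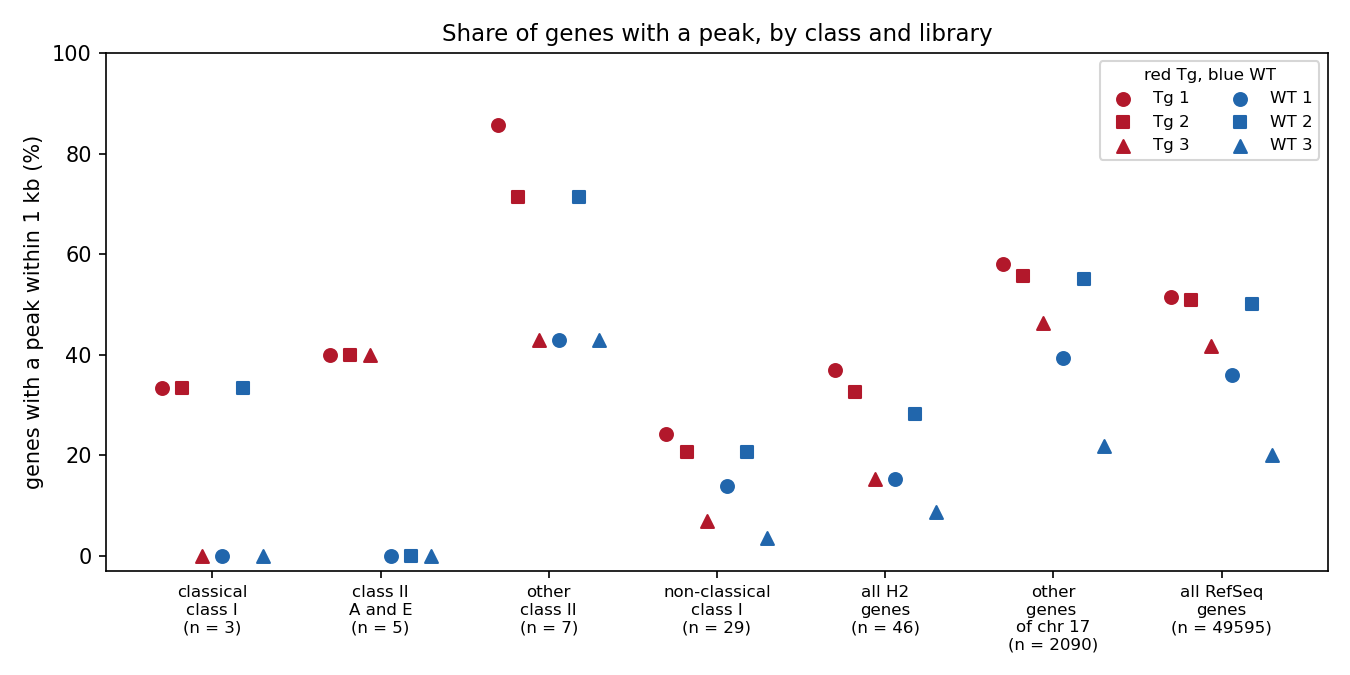
Percent of genes with a peak in the gene span or within 1 kb of it (y axis) for 4 H2 classes, all H2 genes, the other genes of chromosome 17 and all RefSeq genes (x axis, n = genes), with 1 point per library, transgenic in red and wild type in blue. The class II A and E points lie at 40% in the 3 transgenic libraries and at 0 in the 3 wild-type libraries. The points of all H2 genes lie below those of all RefSeq genes in the same library, and H2 windows are shorter on average.

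The class II A and E genes were the class in which the groups separated, through H2-Eb1 and H2-Ea alone. A peak was present at 2, 2 and 2 of the 5 genes in transgenic libraries, against 0, 0 and 0 in wild-type libraries. Over all 29033 genes with a peak in at least 1 library, 7.21% had a higher covered share in every transgenic than in every wild-type library and 0.0172% a lower one. That measure differs from peak presence, since it also counts genes with peaks in wild-type libraries. Genes with a peak in all transgenic and no wild-type libraries are only a part of the 7.21%, and their share is not given here. With 5 genes, a share of 0 has an exact 95% upper bound of 52.2%. H2-Ab1, H2-Aa and H2-Eb2 had no peak in any library, and neither did the intervals from H2-Ab1 to H2-Aa, from H2-Aa to H2-Eb1 and from H2-Eb1 to H2-Eb2.

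H2-Ea is the gene of the alpha chain of the I-E molecule, and it is annotated in this reference as a transcribed pseudogene. The labels give no H2 haplotype, and whether mapping to mm10 differed between the animals at H2-Ea and H2-Eb1 was not tested. It spans chr17:34341952-34344645, and its peaks lie inside the gene at chr17:34343512-34343963. Peaks covered 7.84, 7.20 and 9.20% of its window in transgenic libraries 1 to 3, against 0, 0 and 0% in wild-type libraries. The peak caller's score, which is the authors' own value and is not scaled between libraries, was 248, 175 and 107 in the transgenic libraries. Every transgenic library had the peak and no wild-type library did. The mean was 8.08 ± 1.02% in transgenic and 0% in wild-type libraries (SD, n = 3 each), and the two-sided exact permutation test gave p = 0.1, the smallest that 3 against 3 allows.

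When each list was reduced to its 30640 highest-scoring peaks, H2-Ea kept its peak in transgenic libraries 1 and 2 and lost it in transgenic library 3, where its score of 107 lay just under the lowest score kept, 110. The wild-type libraries had none to begin with, and shortening a list cannot add a peak. Among the 2987 merged regions of the genome with a peak in all transgenic and no wild-type libraries, 80 had a higher lowest score than the H2-Ea region. The lowest score is taken over libraries whose scores differ in scale, so this rank is only a rough guide.

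H2-Eb1 encodes the beta chain of I-E. Peaks covered 6.39, 5.19 and 2.20% of its window in transgenic libraries 1 to 3, against 0, 0 and 0% in wild-type libraries. The transgenic values averaged 4.60 ± 2.16% (SD, n = 3), with the same exact p = 0.1. Its peaks had lower scores than that of H2-Ea in the same library, and no position was shared by all 3: transgenic library 1 had peaks with scores of 85.5 and 53.7, transgenic library 2 had 65.6 and 57.9, and transgenic library 3 had 56.8, where 50 is the lowest score in every list. The first peak of transgenic library 1, at chr17:34309419-34309880, contains the peak of transgenic library 3, and the second peaks of transgenic libraries 1 and 2 overlap near chr17:34314189-34314481. The first peak of transgenic library 2, at chr17:34310151-34310522, overlaps no other. None of the H2-Eb1 peaks reached the pooled median score of 96.3.

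**Figure D3:**
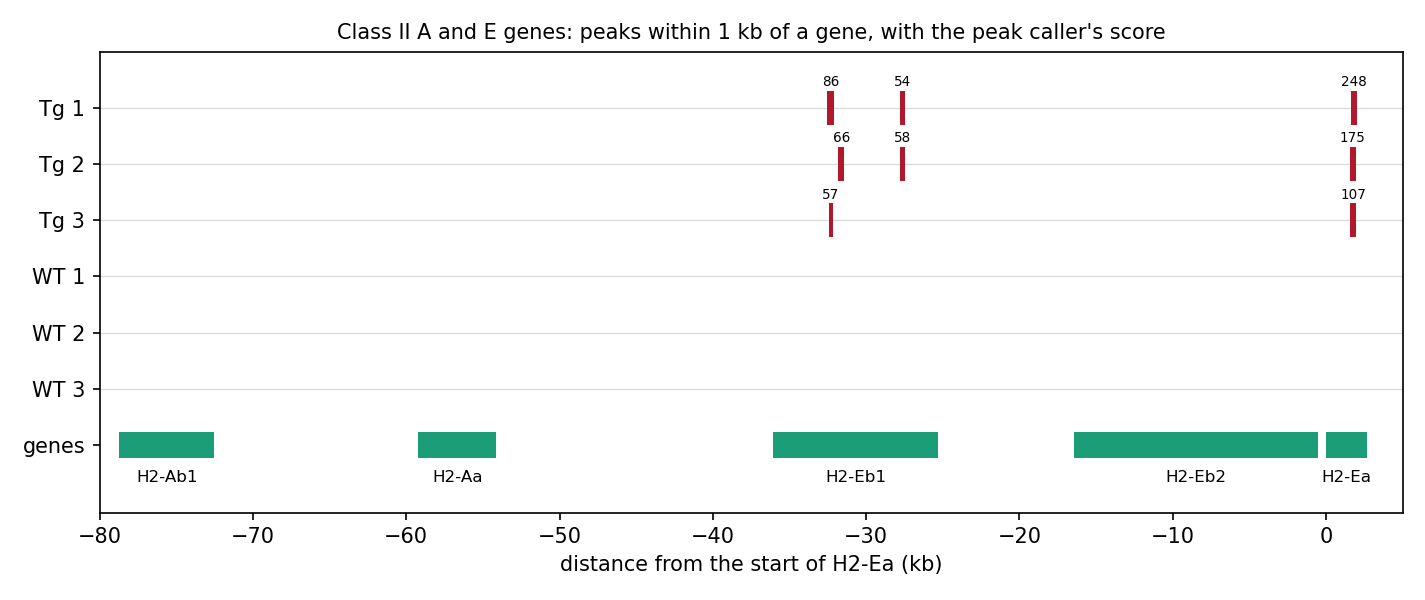
Peaks at the class II A and E genes in each library (rows, transgenic above wild type; the lowest row holds the genes), by distance from the start of H2-Ea in kb (x axis), with each peak's score printed above it. Transgenic libraries have peaks in H2-Eb1 and H2-Ea, with scores of 248, 175 and 107 at H2-Ea, and the wild-type rows are empty.

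Of the 46 H2 genes, 3 had higher covered shares in every transgenic than in every wild-type library, H2-Eb1, H2-Ea and H2-T24, and 0 had lower ones. Of the 18 H2 genes with a peak, 3 are 16.7%, beside the 7.21% of all genes with a peak given above. No test was made over the list. The exact permutation test cannot go below p = 0.1 with 3 libraries against 3, so none of these calls carries an adjusted p. Among the 18 H2 genes with a peak, 15 had a higher and 3 a lower mean in transgenic libraries. Their median difference, transgenic minus wild type, was 2.33 percentage points, against 1.57 over the 29033 genes. With equal-length lists 0 H2 genes were higher in every transgenic library, against 7.32% of the 17851 genes then tested.

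H2-T24 is a non-classical class I gene of the T region and was covered at nearly the same level in 5 of the libraries. Peaks covered 10.3, 10.4 and 10.5% of its window in transgenic libraries 1 to 3, against 10.01, 9.24 and 4.06% in wild-type libraries 1 to 3. The lowest transgenic and the highest wild-type value thus lay close together, and wild-type library 3, with the shortest list, was low. The means were 10.4 ± 0.0813% in transgenic and 7.77 ± 3.24% in wild-type libraries (SD, n = 3 each; exact permutation p = 0.1). It held 3 regions with a peak in all 6 libraries, the only such regions at an H2 gene. Scores at the strongest, chr17:36007983-36008796, were 532, 369 and 160 in transgenic libraries, against 71.9, 273 and 128 in wild-type libraries, so the groups overlapped there. H2-T24 kept a peak in all 6 libraries with equal-length lists. The same regions lie inside the overlapping gene A930015D03Rik, and a peak cannot be assigned to either gene.

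Among the other class II genes, 6 of 7 had a peak in at least 1 library, H2-Ob being the exception. A peak was present at 6, 5 and 3 of them in transgenic libraries, against 3, 5 and 3 in wild-type libraries, so the groups overlapped. H2-Pa, a class II pseudogene, was the most covered H2 gene, with 52.9, 26.5 and 19.5% in transgenic libraries, against 0, 36.8 and 15.2% in wild-type libraries. H2-Oa, which encodes the alpha chain of H2-O, had 24.3, 11.3 and 10.9% in transgenic libraries, against 3.95, 21.3 and 2.76% in wild-type libraries. At both genes wild-type library 2 exceeded 1 or more transgenic libraries, and the exact permutation p was 0.4 for H2-Pa and 0.5 for H2-Oa. Peaks at both also overlap the gene BC051537.

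H2-DMb1, a beta chain of H2-DM, had 4.79, 6.03 and 5.09% in transgenic libraries, against 7.07, 5.56 and 0% in wild-type libraries. Its main peak lay inside the gene, 4316 to 4463 bp from its annotated start, with scores of 192, 143 and 135 in transgenic libraries, against 97.4 and 171 in wild-type libraries 1 and 2. H2-DMb2, the other beta chain, was covered to 5.36, 3.88 and 0% in transgenic libraries, against 7.94, 4.36 and 1.65% in wild-type libraries, and is 1 of the 3 H2 genes with a lower transgenic mean. H2-DMa is the alpha chain, and its first promoter entry is the richest in CpG. That entry lies inside the annotated gene span, which starts at chr17:34119693. The nearest H2-DMa peak lay downstream of it, from chr17:34131197. Peaks covered 9.24, 4.36 and 0% of its window in transgenic libraries, against 0, 3.52 and 0% in wild-type libraries. These 3 neighbours overlapped between the groups.

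The classical class I genes were almost free of peaks. H2-K1 and the pseudogene H2-K2 had none in any library. H2-D1 was covered to 1.44, 1.84 and 0% in transgenic libraries, against 0, 2.40 and 0% in wild-type libraries, from a peak centred upstream of the gene, at -1116 to -1005 bp from its annotated start. Its scores were 111 and 87.2 in transgenic libraries 1 and 2, against 64.0 in wild-type library 2. The 3 libraries with the longest lists had this peak and the other 3 did not.

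Of the 29 non-classical class I genes, 8 had a peak in at least 1 library, 3 of 8 Q genes, 3 of 6 T genes and 2 of 15 M genes. A peak was present at 7, 6 and 2 of the 29 in transgenic libraries, against 4, 6 and 1 in wild-type libraries. Thus 24.1, 20.7 and 6.90% of them had a peak in transgenic libraries, against 13.8, 20.7 and 3.45% in wild-type libraries. H2-M6-ps, a pseudogene, was covered to 14.3, 9.19 and 6.32% in transgenic libraries, against 9.12, 10.5 and 0% in wild-type libraries. H2-Q6, a class I gene of the Q region, was covered to 5.84, 5.37 and 0% in transgenic libraries, against 4.68, 9.39 and 0% in wild-type libraries. Its neighbour H2-Q7 had 5.86, 6.00 and 0% in transgenic libraries, against 4.48, 5.29 and 0% in wild-type libraries. Groups overlapped at these genes.

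H2-Q5, a transcribed pseudogene, had peaks in transgenic libraries only, covering 7.81, 12.1 and 0% in transgenic libraries 1 to 3, against 0, 0 and 0% in wild-type libraries. It is 1 of 5 H2 genes with peaks in transgenic libraries only, beside H2-Ea, H2-Eb1, and H2-Pb and H2-T3 with a peak in transgenic library 1 alone. These 5 are 27.8% of the 18 H2 genes with a peak. Over all 29033 genes with a peak, 10.6% had peaks in transgenic libraries only and 3.91% in wild-type libraries only. H2-T10 is the 1 H2 gene (5.56% of the 18) with a peak in wild-type libraries only, in library 2. No test was made on these shares. The 7 genes of the M10 family, which in mice are expressed with pheromone receptors in the vomeronasal organ, had 0 peaks in any library.

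**Figure D4:**
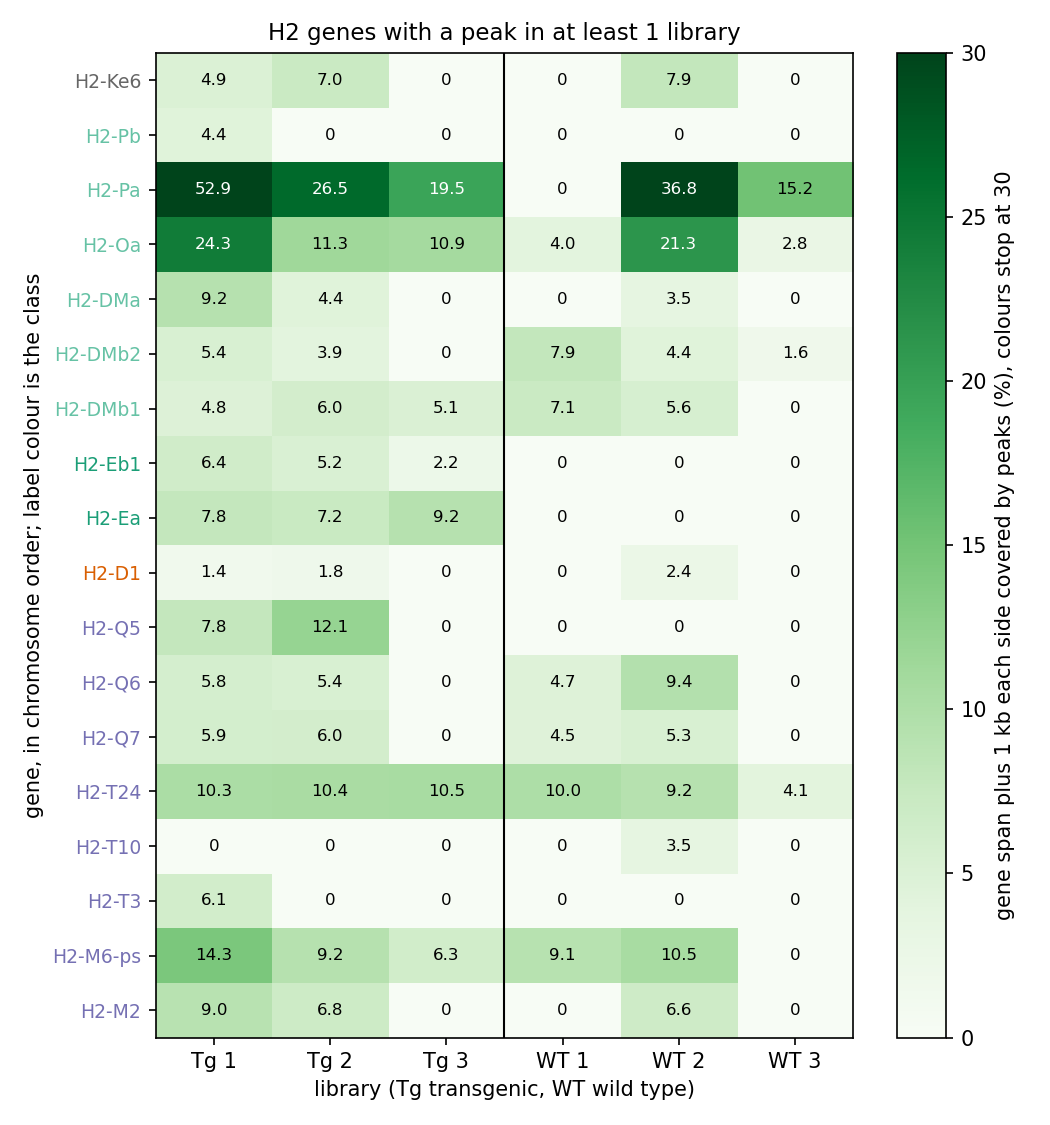
Percent of each gene's window (gene span plus 1 kb at each end) covered by peaks, for the 18 H2 genes with a peak in at least 1 library (rows, in chromosome order) in the 6 libraries (columns, transgenic left of the line, wild type right of it); darker green is higher and colours stop at 30%. H2-Eb1 and H2-Ea are filled in the 3 transgenic columns and at 0 in the wild-type columns, H2-Pa reaches 52.9%, and H2-T24 is filled in all 6 columns.

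Within libraries, other class II genes had a peak more often than non-classical genes in each of the 6 libraries. Class II A and E genes exceeded non-classical genes in the 3 transgenic libraries and lay below them in the 3 wild-type libraries, and the mean difference over 6 libraries was 5.06 percentage points with an SD of 21.0. Classical minus non-classical genes gave 1.72 points with an SD of 11.3, and turned to -14.4 points when gene spans were used without the 1000 bp at each end, which leaves out the peak before H2-D1. No order between classical and non-classical genes can be read from these libraries.

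The H2 locus, from the first to the last H2 window, runs over 3.51 Mb at chr17:33973659-37484554 and holds many genes other than H2. It held 273, 258 and 166 peaks in transgenic libraries, against 122, 255 and 62 in wild-type libraries. Merging overlapping peaks of the 6 lists gave 357 regions, of which 32 (8.96%) touched an H2 window. A peak in all 6 libraries was found at 33 of the 357 regions (9.24%), against 10.9% of the 166001 regions of the genome.

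The 43 intervals between H2 windows were covered to 4.60, 3.58 and 2.37% in transgenic libraries, against 1.64, 4.03 and 0.382% in wild-type libraries. Means were 3.51 ± 1.11% in transgenic and 2.02 ± 1.85% in wild-type libraries (SD, n = 3 each), and the groups overlapped. The difference of 1.497 points was 0.679 without wild-type library 3, 0.956 without transgenic library 1 and 2.504 without wild-type library 2, and 0.315 with equal-length lists. In each library except wild-type library 3 this share was above that of the H2 windows themselves, which averaged 2.52 ± 1.11% in transgenic and 1.41 ± 1.00% in wild-type libraries. The interval from H2-Ea to H2-D1, 916 kb with the class III genes, held 105, 93 and 63 peaks in transgenic libraries, against 41, 100 and 15 in wild-type libraries. The interval from H2-Q3 to H2-Q4, 17.6 kb with no other gene, was covered to 16.4, 17.7 and 9.12% in transgenic libraries, against 9.79, 14.7 and 4.97% in wild-type libraries, and held 2 regions with a peak in all 6 libraries.

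The longest stretch of the locus without any peak in the 6 lists, 145 kb, lay between H2-Ea and H2-D1 and holds no H2 gene. Several of the next longest lay around the M genes. A gap of 138 kb holds H2-M10.3, H2-M10.5-ps1 and H2-M10.4, and another of 96.3 kb holds H2-M3, which presents formylated peptides. Gaps of these lengths also occur elsewhere. Of the 165979 gaps of the genome, 1356 are at least as long as the one of 138 kb and 3451 at least as long as the one of 96.3 kb.

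**Figure D5:**
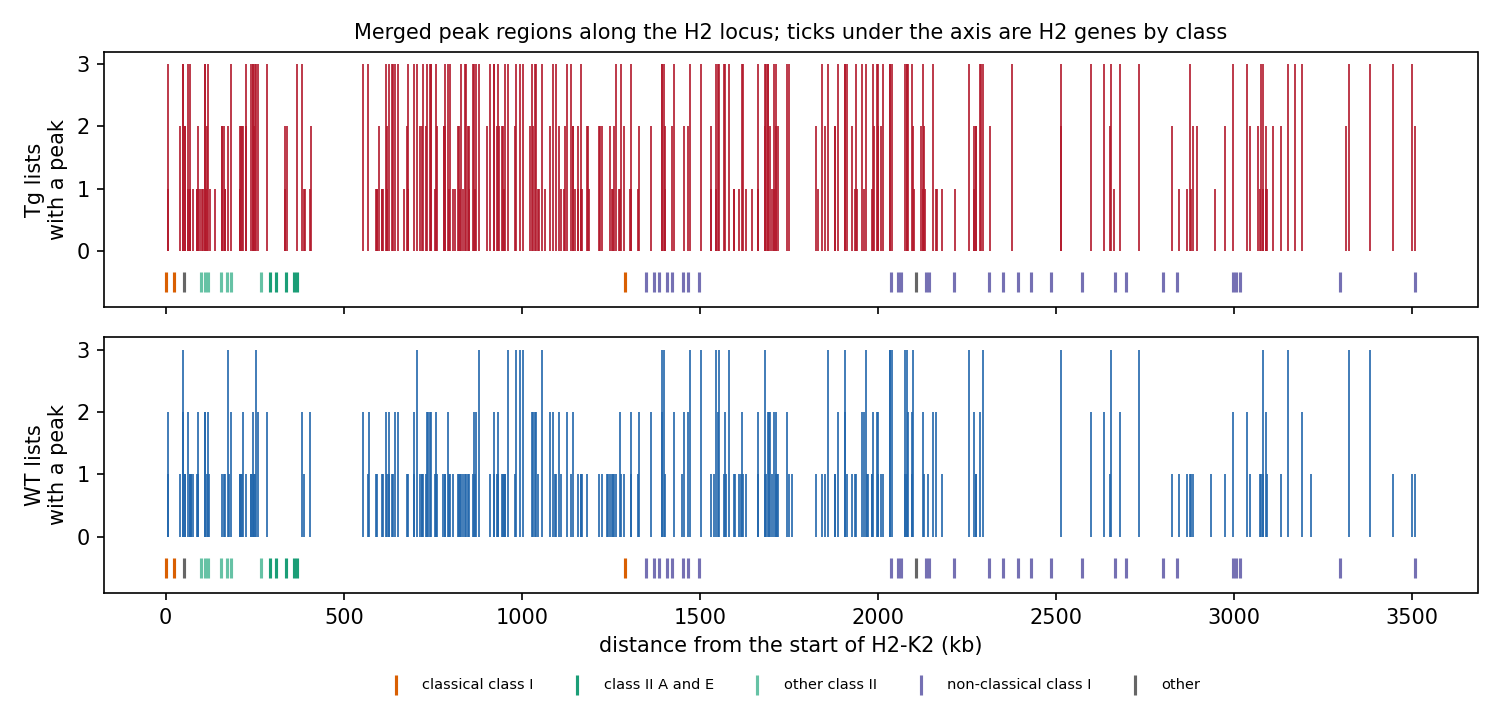
Merged peak regions along the H2 locus by distance from the start of H2-K2 in kb (x axis), with the number of transgenic lists (upper panel) and wild-type lists (lower panel) that hold each region (y axis, 0 to 3) and H2 genes as ticks coloured by class. After a gap of 145 kb, peaks are dense in the rest of the 916 kb between H2-Ea and H2-D1, and they are sparse among the M genes at the right, and more lines reach 3 in the transgenic panel.

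A peak in all transgenic and no wild-type libraries was found at 6 regions of the locus, which is 1.68% of its 357 regions, against 1.8% of all regions. The reverse pattern was found at 0 regions of the locus, against 0.0145% of all regions. Only 1 of the 6 touched an H2 gene, the region in H2-Ea. Another, at chr17:36349436-36349783, lay 15221 bp from H2-M10.3, the nearest gene, and had scores of 197, 150 and 171 in the transgenic libraries. Of the 2987 transgenic-only regions of the genome, 11 had a higher lowest score, a rank over libraries whose scores differ in scale. The other 4 lay in Cyp21a2-ps, Vars2 and Trim39 and 5123 bp from the olfactory receptor gene Olfr93. With equal-length lists none of the 6 was left, against 1.13% of all regions.

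The authors tested read counts rather than peak presence. The authors' deposited table listed 0 differential regions at H2 genes and 0 anywhere in the locus, against 407 in the genome, of which 21 were on chromosome 17. The 407 regions of the authors' deposited table each equal a merged peak region found in 3 or more lists, and they are 0.441% of the 92205 such regions, a number that also follows from the table's own p and FDR values. The locus held 205 such regions. In the authors' deposited table the nearest ones lay 11.5 Mb before the locus, with a log2 fold of 0.70 (FDR 0.0292), and 1.64 Mb after it, with a log2 fold of -1.08 (FDR 0.0476). The H2-Ea region, with a peak in 3 lists, was not among the regions of the authors' deposited table.

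Genes that serve antigen presentation outside the H2 symbols were taken from a list of 44 that could be matched, with assembly factors, proteasome subunits, peptide transporters, transcriptional activators and class I-like molecules. A peak was present at 33 of them in at least 1 library and at 6 in all 6, and 11 had none, among them B2m, which encodes beta-2 microglobulin. Of the 33, 2 were higher in every transgenic library, Nlrc5 and Marchf1, and 0 were lower in every one, to be read against the 7.21% of all genes. The median difference was 0.859 percentage points, against 1.57 over all genes.

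Nlrc5, the class I transactivator, was covered to 2.78, 2.22 and 1.71% in transgenic libraries, against 0.778, 1.56 and 0.201% in wild-type libraries. Marchf1, a ubiquitin ligase that lowers surface class II, was covered to 1.12, 1.05 and 0.839% in transgenic libraries, against 0.686, 0.837 and 0.193% in wild-type libraries, so its groups came within rounding of each other. Ciita, the class II transactivator, was covered to 4.93, 3.54 and 3.10% in transgenic libraries, against 0.645, 3.22 and 0.271% in wild-type libraries, and its groups overlapped. Lgmn, a lysosomal protease, was covered to 12.2, 8.61 and 6.24% in transgenic libraries, against 4.19, 8.62 and 2.38% in wild-type libraries. H60b, a ligand of an activating receptor of natural killer cells, and Erap1, which trims peptides for class I, also had a peak in all 6 libraries with overlapping groups.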

How the data were processed

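Each of the 6 deposited peak lists gives positions and a score, the authors' own value per peak, at least 50 and not comparable in scale between libraries. Bowtie, DiffBind, edgeR and build mm10 are named in the submitters' processing notes with no versions, and the peaks bear MACS names. The authors' deposited table gives a log2 fold, a p-value and an FDR up to 0.0996 per region. Groups follow the sample titles, and transgenic replicate 2 has a variant spelling of the genotype. Replicates are labelled as biological.

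Gene spans and promoters came from RefSeq (GRCm38.p6). Covered shares of windows (span plus 1000 bp at each end, overlap of at least 1 bp) were set against each other with exact permutation tests, two-sided (Python 3.11.15, NumPy 2.4.6), and a gene was called when the groups did not overlap. On simulated data 200 of 200 planted genes among 1464 were recovered. Planted genes had a peak in every transgenic and no wild-type list, so recovery was fixed in advance. It checked the code and not the call rule.

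The H2 genes and the antigen presentation list were chosen with earlier results of these data known. Named were all classical and class II A and E genes, genes with a peak in all 6 lists or without group overlap, and the 6 with the highest mean covered share; others, such as H2-Q5 and H2-DMb2, were named after their values were seen. Alternatives changed the window, list length, score threshold, overlap, biotype, replicate block and libraries.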

Additional observations from a re-analysis of the deposited data

How the results depend on the processing

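Of 106 alternative values, 87 kept their direction and stayed within the spread between libraries (for counts, within 1.5 times), 10 moved and 9 changed sign. That spread exceeded the main value for the intervals (1.53 against 1.497 points) and the class comparisons (21.0 against 5.06, 11.3 against 1.72). A fall towards 0 therefore counted as kept there, as with 0.315 for the intervals with equal-length lists. The 87 also hold counts that could only stay or rise, so this tally does not measure robustness. With 30640 top-scoring peaks from each list, the difference in the percent of H2 genes with a peak was 0, 0 H2 genes were higher in every transgenic library, and 0 regions of the locus were transgenic-only; over all genes 7.32% were still higher in every transgenic library, and 1.13% of all regions still transgenic-only. The difference in the percent of H2 genes with a peak ran from 6.52 to 17.4 points when a library was left out. The difference in H2 window coverage, 1.11 points, ran from 0.573 (without transgenic replicate 1) to 1.68 (without transgenic replicate 3) without a library, with 0.646 without wild type replicate 3, and was 0.357 with equal-length lists, and that of the intervals, 1.497 points, ran from 0.679 to 2.504.

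H2 genes higher in every transgenic library numbered 3 to 7 when a library was left out: 7 without transgenic replicate 3 (background 32.2%) and 5 without wild type replicate 2 (background 49.8%). H2-Eb1, H2-Ea and H2-T24 were among them each time by construction, since leaving out a library cannot undo a separation of the groups. These counts could therefore only stay or rise. Transgenic-only regions of the locus numbered 6 to 45 when a library was left out, an alternative chosen after seeing the data. There were 10 without transgenic replicate 2 (2.93% of the locus, 3.58% of all regions) and 29 without transgenic replicate 3 (8.29 and 6.29%). Without wild type replicate 2 there were 45 (13.2 and 13.1%). The H2-Ea region was again present by construction.

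Classical minus non-classical genes, 1.72 points, became -14.4 with no window, -14.9 with 500 bp and with half-overlap of the peak, 28.9 with 2000 bp, -5.75 with equal-length lists and -3.07 at the median score, and ran from -0.46 to 4.83 without a library. Class II A and E minus non-classical genes, 5.06 points, became -0.543 for protein-coding genes alone, which leaves out H2-Ea, and ran from -0.552 to 10.2 without a library. Except where stated, the cause was not tested.

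A replicate block compared same-numbered libraries pair by pair. It leaves the difference in the percent of H2 genes with a peak at 10.9 points by construction. That value is counted among the 87 that kept their direction. With the block, 3 H2 genes were higher and 1 was lower (H2-DMb2), against 30.5% of all genes higher. Deviations of same-numbered libraries from their group means had correlations of -0.159, 0.109 and 0.458 for replicates 1, 2 and 3. The libraries numbered 3 had the shortest list of each group. Whether same-numbered libraries were paired cannot be told from these values. Without read depth, an absent peak may be a shallow library, and no region can be called unmethylated.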
